A study of Mus musculus with 6 samples.

Results

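The genes described here encode subunits of the BAF complex, the mammalian SWI/SNF chromatin remodeller, whose composition is known to change when neural progenitors become neurons. There were 10 of them, chosen by name: the progenitor subunits Actl6a, Phf10 and Ss18, the neuronal subunits Actl6b, Dpf1, Dpf3 and Ss18l1, and Bcl7a, Smarca2 and Smarca4, which belong to neither class. All 10 were found among the 19988 genes that the array's probes could be matched to, through 13 probes. Every one of the 10 also lay among the 13128 genes that passed the filter on dim signal, Dpf3 only through the group in which it was brighter.

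As background, the BAF complex uses the energy of ATP to move or evict nucleosomes, with Smarca4 or Smarca2 as its motor. In dividing neural progenitors the complex is known to hold the actin-related protein Actl6a, the double PHD finger protein Phf10 and the Ss18 protein. In neurons that have left the cell cycle these are replaced by their relatives Actl6b, Dpf1 or Dpf3, and Ss18l1, and the replacement is known for its part in cell cycle exit and dendrite growth.

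Messenger RNA was measured in sorted cells of the dorsal telencephalon (the cortex to be) of embryonic day 14.5 mice on a C57BL/6 background. All embryos, and so both groups, carried 1 copy of the Tis21-GFP knock-in, in which the locus of Tis21 (Btg2), an antiproliferative gene known to be switched on in progenitors committed to making neurons, drives GFP. All cells were in S phase by DNA content, and the sort separated cells with Tis21-GFP signal (positive) from cells with none (negative), giving 3 arrays of each kind. An array is named below by its group and replicate number, as in positive array 2. Each replicate pooled 30 hemispheres of 15 embryos and about 200000 cells, and the authors kept 3 of 4 independent experiments. The groups are defined by GFP and DNA content alone, so the negative group can hold any other cycling cell of the dissected tissue. Gating on S phase selects against neurons that have left the cell cycle in both groups.

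The sort could be read from the arrays. The positive cells exceeded the negative cells in Btg2 signal by 0.77 ± 0.17 on the log2 scale (SE, n = 3 arrays per group, limma adjusted p = 0.0139), a call lost without negative array 1 (0.69, adjusted p = 0.0623). All 10 intermediate progenitor markers were higher in positive cells, among them Insm1 by 2.67 and Mfng by 2.93. That list includes Btg2, whose locus drives the GFP used for the sort. With 1 array left out, 9 to 10 of the list were called higher. Of 12 radial glia markers, 10 were lower, including Fabp7 at -1.35 and Vim at -0.81. Of 15 markers of postmitotic neurons, 5 were higher and 6 lower, with Tubb3 at 0.82 and Snap25 not called at -0.36. Differences within this list ran from -1.598 to 2.155. The count of 5 was 3 with quantile normalization and in the authors' values, where Tubb3 was not called (0.535 and 0.532). Snap25 was called lower under both (-0.633 and -0.635), with the percentile over probes bright on all 6 arrays (-0.537) and without positive array 3 (-0.491). Markers of other cell types were lower in positive cells in 9 of 9 genes for microglia and macrophages (Csf1r at -0.91 with a call lost without negative array 1, 2 or 3 at -0.92, -0.86 and -0.94, Fcer1g at -1.82) and in 8 of 8 for mesenchyme and meninges (Fn1 at -1.10, Col1a2 at -2.51), where the probes of Col3a1 and Lum stayed below the background criterion on all positive arrays. Of 8 endothelial and pericyte markers, 5 were lower, and the probes of Pdgfrb, Rgs5 and Abcc9 stayed below that criterion on all positive arrays. Of 7 interneuron markers 1 was lower, and the 5 erythrocyte markers had a median difference of -0.54.

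The summed signal of the marker lists, with 1 unit equal to the array's 75th percentile, was 341 to 390 in positive and 50 to 74.8 in negative cells for intermediate progenitors, 152 to 186 against 302 to 347 for radial glia, and 180 to 218 against 129 to 173 for neurons. It was 4.26 to 7.79 against 14.2 to 18.5 for microglia, 12.3 to 19.6 against 37.4 to 41.6 for mesenchyme, 9.55 to 10.6 against 8.26 to 9.45 for endothelium, 24.4 to 25.3 against 28.1 to 31.8 for interneurons and 12.4 to 37.6 against 24.2 to 37.2 for erythrocytes. Bright probes weigh most in such sums, as Kdr (0.45, not called) does for endothelium. Below 0 lay 7 of the 8 endothelial genes, with a median of -1.234, and 9 of the 15 neuron genes, with a median of -0.145. The part of these marker differences in the values of the BAF genes below was not tested. In such pooled cells, fewer cells of a type and less RNA per cell cannot be told apart.

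RefSeq promoter windows (assembly GRCm38.p6, from 250 bases before to 50 bases from the transcription start onwards) were at hand for 8 of the 10 genes. The windows lie at chr3:32708296-32708595 on the plus strand for Actl6a, at chr5:137553296-137553595 on the plus strand for Actl6b and at chr12:83487687-83487986 on the minus strand for Dpf3. Those of Actl6a and Actl6b are shown because these paralogs are the clearest pair of the subunit exchange, and that of Dpf3 because it was the neuronal subunit with a called difference. Capitals mark the letters CCAAT on either strand, which reads ATTGG on the strand shown, the core of the CCAAT box.
Actl6a: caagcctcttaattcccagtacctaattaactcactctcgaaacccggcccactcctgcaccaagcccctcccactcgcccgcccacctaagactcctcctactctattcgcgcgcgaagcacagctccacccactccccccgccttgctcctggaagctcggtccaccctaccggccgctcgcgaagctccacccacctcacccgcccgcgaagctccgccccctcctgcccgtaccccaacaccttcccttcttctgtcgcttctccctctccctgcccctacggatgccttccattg
Actl6b: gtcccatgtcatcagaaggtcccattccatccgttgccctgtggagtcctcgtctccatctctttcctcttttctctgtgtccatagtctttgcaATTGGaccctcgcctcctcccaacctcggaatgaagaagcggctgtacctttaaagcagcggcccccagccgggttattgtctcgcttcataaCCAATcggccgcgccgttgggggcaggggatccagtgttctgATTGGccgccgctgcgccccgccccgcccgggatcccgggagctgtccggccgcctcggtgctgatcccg
Dpf3: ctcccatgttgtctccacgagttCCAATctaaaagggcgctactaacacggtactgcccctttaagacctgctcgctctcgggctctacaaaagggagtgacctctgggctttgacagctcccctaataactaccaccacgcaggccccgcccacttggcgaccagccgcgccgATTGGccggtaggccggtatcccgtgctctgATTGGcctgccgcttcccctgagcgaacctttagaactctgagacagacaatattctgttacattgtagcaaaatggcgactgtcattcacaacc

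The CCAAT letters, searched after the sequences had been read, occurred 3 times in the Actl6b window, 3 times in that of Dpf3 and 2 times in that of Dpf1. They did not occur in the windows of Actl6a, Phf10, Ss18l1, Smarca2 or Smarca4. Across 32851 promoter windows of the same length, 37.4% held the letters at least once and 11.7% held them at least 2 times. Counted in bases from the transcription start, the matches began at -155, -62 and -20 in Actl6b and at -227, -76 and -45 in Dpf3. The 3 windows printed held 21 CpG dinucleotides in Actl6a, 23 in Actl6b and 17 in Dpf3, against a median of 7 over all windows. Fewer were held by 75.2%, 78.5% and 68.6% of all windows. The other windows of the 8 genes held more, from 29 in Smarca2 to 62 in Phf10. Other motifs were searched on both strands. The E-box form CAGATG is held by 17.2% of all windows, the form CATATG by 3.91% and the form CAGCTG by 16.3%, and the E2F-type forms TTTCCCGC by 1.07% and TTTGGCGC by 0.514%. The 8 windows held 1 match to these forms, a CAGCTG in Phf10, and 34.6% of all windows held at least 1 of the forms.

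The design sets Tis21-GFP positive against negative cells, so each subunit was compared between S-phase cells with and without GFP signal. Signals are log2 intensities with each array's 75th percentile set to 0, differences are positive minus negative, and a gene was called at an adjusted p under 0.05 (limma, Benjamini-Hochberg over the 13128 genes). Of the 9 genes well above background in both groups, Actl6a and Bcl7a were higher in positive cells and 7 were not called. Dpf3 was well above background only in negative cells and was called lower, with only a bound to its size. Over all genes, 12.9% were called higher and 13.1% lower, 25.9% in all, so 2 of 9 is near the background share. The 2 groups did not overlap for 5 of the 10 genes, against 46.8% of all genes (28.1% higher and 18.6% lower). The 5 include Dpf3, which passed the filter only through the negative group, so its separation adds no support. The others, Actl6a, Ss18, Ss18l1 and Bcl7a, were higher in positive cells. With the replicate number as a block 30.3% of all genes were called, and the calls of the 10 genes did not change. By class, 1 of the 3 progenitor subunits was higher, none of the 3 neuronal subunits measured in both groups was called, and 1 of the 3 others was higher. The median difference was 0.39 for the progenitor subunits and -0.33 for the neuronal ones, or -0.21 with Dpf3 at its bound, against 0.12 (0.115) for all genes. Changes relative to that shift of 0.115 were 0.55 for Actl6a and 1.16 for Bcl7a. The shift belongs to this scaling. It was 0.297 after median centring, 0.02 in the authors' values and -0.059 with the percentile over probes bright on all 6 arrays.

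**Figure D1:**
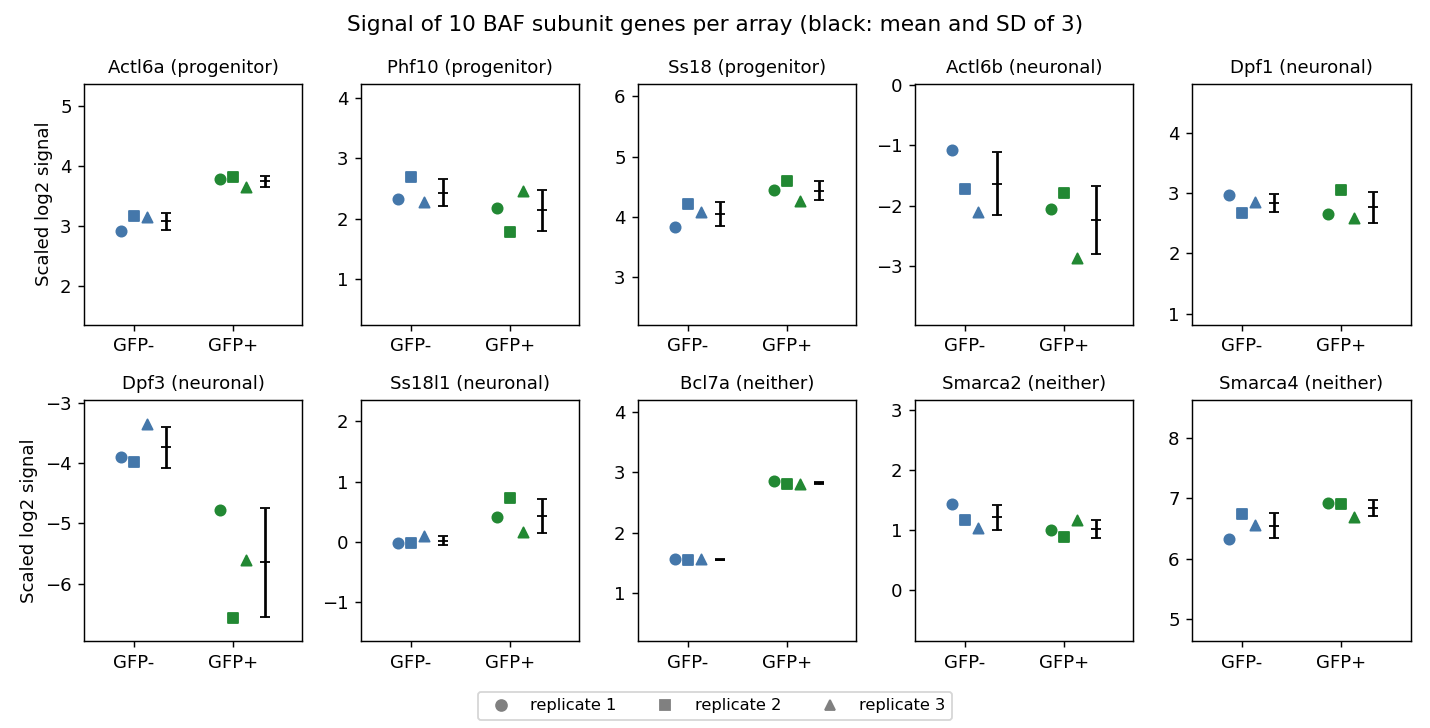
Scaled log2 signal (y axis, 0 is the array's 75th percentile; every panel spans 4 log2 units) of each of the 10 genes on the 3 Tis21-GFP negative (GFP-, blue) and 3 positive (GFP+, green) arrays, with symbols for replicates 1 to 3 and the mean and SD in black. The arrays of the 2 groups are apart for Actl6a, Ss18, Dpf3, Ss18l1 and Bcl7a, and Bcl7a has the tightest groups, at 1.54 to 1.56 and 2.81 to 2.85.

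Among the progenitor subunits, Actl6a, the actin-related protein shared by all progenitor BAF complexes, read 2.92, 3.16 and 3.15 on the negative arrays and 3.78, 3.81 and 3.64 on the positive arrays. Every positive array was above every negative one. The difference of Actl6a was 0.67 ± 0.14 (0.665, SE, n = 3 per group, adjusted p = 0.00976), with a 95% interval of 0.35 to 0.98. It was called under all 15 alternatives run, at 0.45 to 0.85.

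Ss18, a subunit that carries a QPGY-rich domain, was measured by a pair of probes. The brighter one read 3.83, 4.22 and 4.09 in negative and 4.45, 4.59 and 4.27 in positive cells, so the groups were apart, but only just. Its difference was 0.39 ± 0.16 and did not pass (adjusted p = 0.1001, interval 0.03 to 0.76). The second probe gave 0.31 ± 0.16 (adjusted p = 0.218 over all 28902 probes tested). With quantile normalization the Ss18 difference was 0.14, and with a variance trend and robust fit it passed at the same 0.39 (adjusted p = 0.0456, range over the alternatives 0.0456 to 0.474).

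Phf10, the PHD finger subunit of progenitor complexes, read 2.33, 2.69 and 2.28 in negative and 2.17, 1.78 and 2.46 in positive cells. The groups overlapped, since positive array 3 lay above negative arrays 1 and 3. The difference was -0.30 ± 0.20 (-0.295, adjusted p = 0.306, interval -0.77 to 0.18), and its sign was negative under all 15 alternatives.

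Of the neuronal subunits, Actl6b, the neuron-restricted relative of Actl6a, read -1.08, -1.73 and -2.11 in negative and -2.05, -1.78 and -2.87 in positive cells. The spread within each group, with SDs of 0.52 and 0.57, was about the size of the difference between them. That difference was -0.60 ± 0.34 (adjusted p = 0.215, interval -1.37 to 0.18). The probe was well above background on all 6 arrays, at processed intensities of 29 to 156 units. Actl6b was below 0 under all 15 alternatives, between -0.83 and -0.16.

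Dpf1, a PHD finger subunit of neuronal complexes, read 2.98, 2.67 and 2.85 in negative and 2.65, 3.05 and 2.58 in positive cells, with full overlap. Its difference was -0.07 ± 0.17 (adjusted p = 0.771, interval -0.46 to 0.32), and the second Dpf1 probe gave -0.26 ± 0.17 (adjusted p = 0.329). The sign was not settled, standing at 0.11 with median centring.

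Dpf3, the other neuronal PHD finger subunit, also known from heart and muscle, read -3.89, -3.98 and -3.35 in negative and -4.77, -6.57 and -5.61 in positive cells. All positive arrays lay below all negative arrays, and the probe was well above background on the 3 negative arrays and on 0 of the 3 positive ones. In processed intensity this was 21.7 to 27.9 units against 3.09 to 11.4 units. Dpf3 was therefore given a bound, at least 1.27-fold lower in positive cells for these processed values, or 0.35 (0.348) on the log2 scale. The bound carries no test of its own, and the normexp difference given below fell short of it. That bound sets the mean of the negative arrays against the mean of, for each positive array, the higher of the probe's own signal and the lowest signal well above background, whereas the fit compared the measured signals, at a difference of -1.91 ± 0.41 (adjusted p = 0.0124). Since the positive signals were not well above background, that difference is not a measured size. With normexp correction of the median signals and its offset of 50 units, where 10.5% of all genes were called lower, the call was lost at -0.16 (adjusted p = 0.462, against 0.00219 to 0.0489 over the other alternatives). Those 14 alternatives made the Dpf3 call, but on positive signals of the same dim probe, so their number adds no separate support. Among these alternatives, 9.27% of all genes were called lower after median centring and 6.89% when dim probes were kept. The share was 8.79%, 10% and 9.61% without negative arrays 1, 2 and 3. Mesenchymal and microglial markers were lower in the same positive arrays, and their part in the Dpf3 value was not tested.

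Ss18l1, the calcium-responsive relative of Ss18 in neurons, read -0.02, -0.03 and 0.10 in negative and 0.41, 0.72 and 0.17 in positive cells. The groups were apart, with positive array 3 close to the negative arrays. The difference was 0.41 ± 0.17 and did not pass (adjusted p = 0.103, interval 0.03 to 0.80). Without positive array 3 it passed at 0.55 (adjusted p = 0.0429, range over the alternatives 0.0429 to 0.287).

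Bcl7a, a small subunit of BAF complexes that the progenitor and neuronal forms both carry, had the clearest difference. It read 1.55, 1.54 and 1.56 in negative and 2.85, 2.81 and 2.81 in positive cells, with SDs of 0.009 and 0.023. Bcl7a was 2.41-fold higher in positive cells, a log2 difference of 1.27 ± 0.12 (adjusted p = 0.000353, interval 1.00 to 1.54). It was called under all 15 alternatives, at 1.096 to 1.452. Of all genes, 7.56% differed by at least as much as Bcl7a in either direction.

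The motor subunits showed no called difference. Smarca4, the ATPase that predominates in progenitors, read 6.33, 6.75 and 6.56 in negative and 6.92, 6.90 and 6.69 in positive cells, with negative array 2 above positive array 3. Its difference was 0.29 ± 0.16 (adjusted p = 0.191, interval -0.07 to 0.65), and a second probe gave 0.38 ± 0.19 (adjusted p = 0.192). Smarca2, the alternative ATPase, read 1.43, 1.16 and 1.04 in negative and 1.01, 0.88 and 1.17 in positive cells, with overlap. The Smarca2 difference was -0.19 ± 0.16 (adjusted p = 0.377, interval -0.55 to 0.17). Both stayed near 0 under some scalings, with Smarca4 at 0.01 under quantile normalization and Smarca2 at -0.01 under median centring.

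Ratios within an array do not depend on how arrays are scaled by a constant, so the exchange was also read as the log2 ratio of 5 gene pairs in each array. Since the members of a pair are measured by different probes, only the change of a ratio between groups is meaningful. The ratio of Actl6b to Actl6a was -4.00, -4.89 and -5.26 on the negative arrays and -5.83, -5.59 and -6.52 on the positive arrays. It was lower on every positive array than on any negative one, with a change of -1.26 (means -5.98 ± 0.48 and -4.72 ± 0.65, SD, n = 3). The exact two-sided permutation test gave p = 0.1, the smallest that 3 against 3 arrays allow, and 0.25 after adjustment over the 5 pairs. Exchanging only same-numbered arrays, a check added after the data were seen, gave an exact p = 0.25, the smallest that 3 pairs of arrays allow. Neither test could pass 0.05, so the ratios are given as values. The change was -0.742 with normexp background. This change runs toward the progenitor paralog, Actl6a, in positive cells.

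The other pairs differed among themselves. The ratio of Ss18l1 to Ss18 was -3.85, -4.24 and -3.98 in negative and -4.04, -3.87 and -4.10 in positive cells, a change of 0.02 (exact permutation p = 1). With quantile normalization the change was 0.241 and in the authors' values 0.243, on the side of the neuronal subunit. The ratio of Dpf1 to Phf10 changed by 0.22 with groups that overlapped in part (exact permutation p = 0.7, adjusted 0.875), and its sign turned without positive array 2 (-0.098). The ratio of Dpf3 to Phf10 changed by -1.62 with no overlap (exact permutation p = 0.1, adjusted 0.25) but rests on a Dpf3 probe that was not well above background in positive cells, and it stood at 0.14 with normexp background. For Smarca2 against Smarca4 the change was -0.48 (exact permutation p = 0.3, adjusted 0.5), and it stood at -0.266 without negative array 1 and at -0.30 with quantile normalization.

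**Figure D2:**
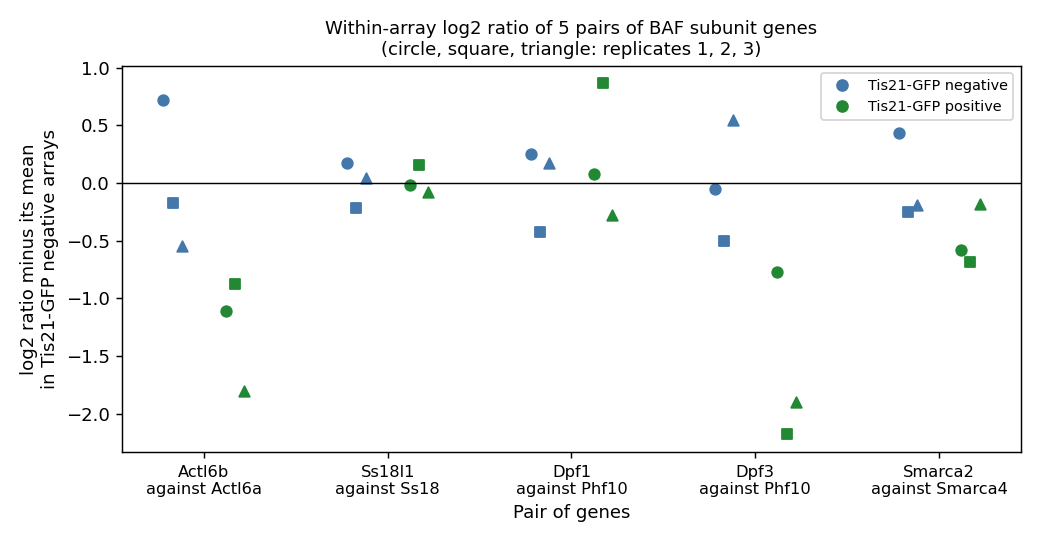
Within-array log2 ratio of 5 pairs of BAF subunit genes, minus the mean of that ratio on the 3 Tis21-GFP negative arrays (y axis), by pair (x axis); blue marks negative arrays, green positive arrays, and circles, squares and triangles replicates 1, 2 and 3. The ratio of Actl6b to Actl6a lies lower on all 3 positive arrays, with a mean change of -1.26, whereas that of Ss18l1 to Ss18 is centred on the same level, with a change of 0.02.

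The remaining BAF subunits were set beside these genes. Of 21 such genes, all measured, 7 were higher in positive cells and 0 lower, where the background was 12.9% higher and 13.1% lower, and 14 were not called. Their median difference was 0.45 (0.445), against 0.115 for all genes. Without a call requirement, 18 of the 21 lay above 0 in this scaling, as did 60.2% of all genes.

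Smarce1, a DNA-binding HMG-box subunit of the core, read 4.44, 4.38 and 4.36 in negative and 5.27, 5.17 and 5.03 in positive cells, and its difference was 0.76 ± 0.13 (adjusted p = 0.00433). Bicral, a subunit of the non-canonical BAF complex, was higher by 0.77 ± 0.14 (adjusted p = 0.00594). These 2 were called under all 15 alternatives. Smarcc2, a scaffold subunit, was higher by 0.60, Bcl11a, a zinc finger protein of the neural complex, by 0.56, Bcl7b, a relative of Bcl7a, by 0.52 (0.515), Brd7, a bromodomain subunit of the PBAF form, by 0.45, and Arid1b, which defines the canonical BAF form, by 0.45. For Arid1b this is the brightest of 3 probes, and the others gave 0.03 (0.028) and 0.02 (0.018), so that the mean of its probes was 0.16 and not called (adjusted p = 0.547, range over the alternatives 0.0194 to 0.547). Each of these 5 lost its call under 6 or more alternatives.

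Among subunits that did not pass, Smarcc1, the progenitor-rich scaffold relative of Smarcc2, stood at 0.60 (adjusted p = 0.0532), Bcl7c at 0.52, Dpf2, the broadly expressed relative of Phf10, Dpf1 and Dpf3, at 0.45 (0.445), and Smarcd2 at 0.35. With the replicate number as a block Dpf2 passed at the same difference (adjusted p = 0.0497, range over the alternatives 0.0268 to 0.341), and Smarcc1 passed under 5 alternatives, among them leaving out positive array 2 (0.72). The 3 genes below 0, named after their values were seen, were Smarcd3 at -0.38, Smarcb1 at -0.33 and Bcl11b at -0.05, none of them called. Smarcb1, the core subunit known as a tumour suppressor, was called lower with quantile normalization (-0.59), the authors' values (-0.59) and the percentile over probes bright on all 6 arrays (-0.50), and Smarcd3 was called lower with the first pair of these (-0.57 and -0.57). Bcl11b also serves as a neuron marker above.

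The count of 7 depended on the arrays, the scaling and the variance model, and ranged from 2 to 10 over the 15 alternatives. With a variance trend and robust fit Smarcc1, Dpf2 and Bcl7c passed as well, where 17.9% of all genes were called higher. Leaving out 1 array gave 3 higher without negative array 1, where 5.71% of all genes were called higher, and 2 without positive array 1 (8.02%). It gave 5 without negative array 2 (9.1%), 3 without positive array 2 (9.48%), 2 without negative array 3 (5.87%) and 5 without positive array 3 (13.1%). Quantile normalization gave 3 (8.58%), the authors' values 3 (8.52%), the percentile over probes bright on all 6 arrays 2 (7.07%) and no filter on dim probes 2 (4.48%). Of the calls over all genes 49.6% were in the higher direction, a share that became 65.9% after median centring, 39.6% after quantile normalization, 29% after the percentile over probes bright on all 6 arrays and 39.4% in the authors' values.

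**Figure D3:**
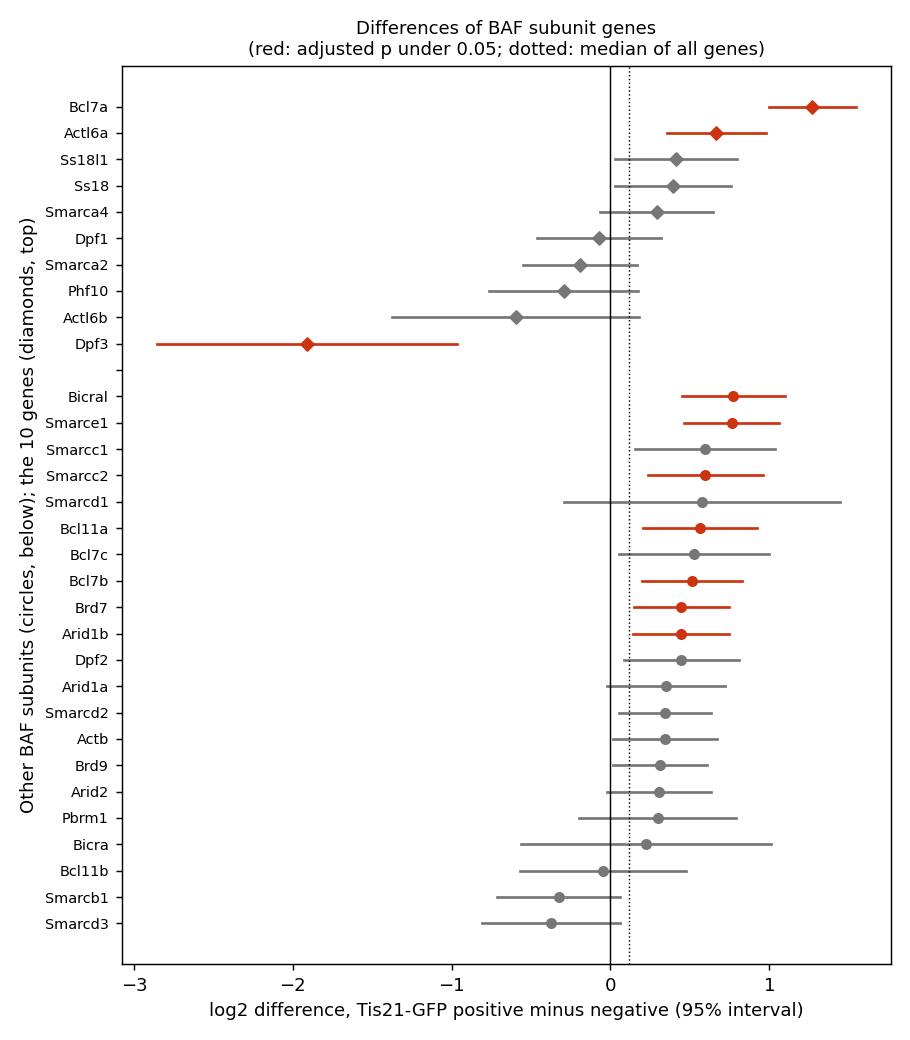
log2 difference, Tis21-GFP positive minus negative, with its 95% interval (x axis) for the 10 genes (diamonds, top) and 21 other BAF subunits (circles, below), red where the adjusted p is under 0.05; the dotted line is the median of all genes, 0.115. Bcl7a lies at 1.27, and 18 of the 21 other subunits lie above 0. The point of Dpf3 is drawn from positive signals that were not well above background, so its place gives no size.

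Actl6a is also a known subunit of the INO80, SRCAP and TIP60 complexes, so their genes were read in the same fit. Of 21 measured, 1 was higher and 0 lower, with a median of 0.28. Over all genes, 12.9% were called higher and 13.1% lower, with a median of 0.115. The gene called was Yeats4, a histone-reading subunit, at 0.55 (adjusted p = 0.0337), a call that 10 of the 15 alternatives did not make, among them each array left out except positive array 3. With the replicate number as a block, 3 of the 21 were higher and 1 lower, against 15.4% and 15% of all genes.

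**Figure D4:**
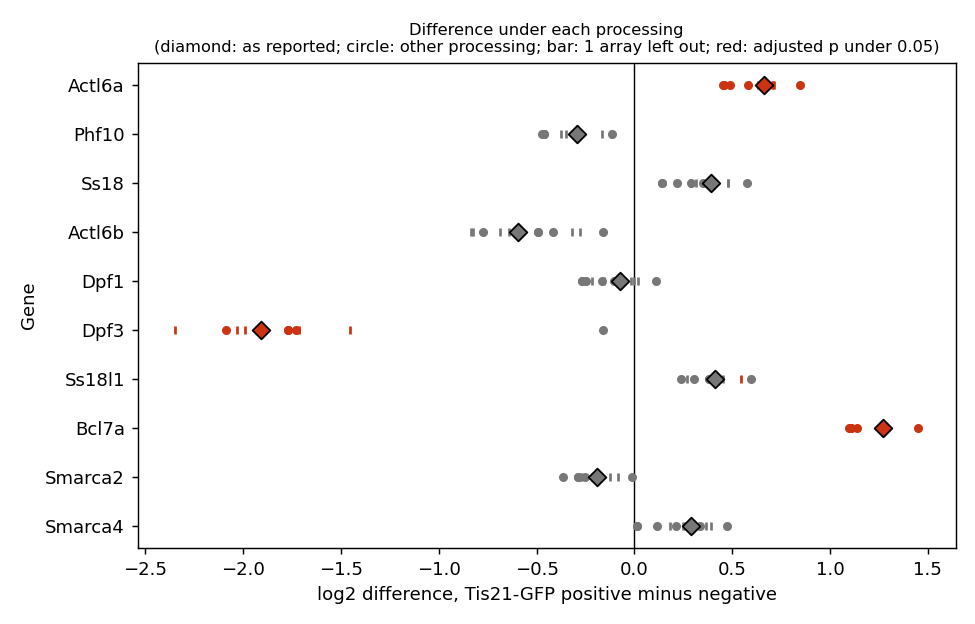
log2 difference, Tis21-GFP positive minus negative (x axis), of each of the 10 genes (y axis) as reported (diamonds), under the other ways of processing (circles) and with 1 array left out (bars), red where the adjusted p is under 0.05. Actl6a and Bcl7a are red throughout, at 0.45 to 0.85 and 1.096 to 1.452, and Dpf3 is red except at -0.16, its value with normexp background.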

How the data were processed

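Intensity values per spot were deposited for 6 1-colour Cy3 arrays, whose files name Feature Extraction 10.7.1.1 (Agilent) per the file headers. These intensity values were corrected for background within each array and not scaled across arrays. A value table deposited by the authors is on a log2 scale (column medians 4.6705 to 4.6708), and its correlation with the log2 scanner values of the matching array was at least 0.99948. The medians are nearly equal and not centred on 0, and its normalization is not stated in the labels.

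Control and outlier spots (118 to 191 per array) were left out, and 0 spots were saturated. Spots of a probe were averaged as log2 values and each array's 75th percentile (213 to 341 units) was subtracted. On each array 51.2% to 56.2% of probes passed the scanner's test for signal well above background, and a probe was kept when it passed on all 3 arrays of a group. Accessions without version were matched to RefSeq (GRCm38.p6), naming 26370 of 55681 probes, and a gene took its probe with the highest mean.

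Groups were fitted with limma 3.58.1 in R 4.3.3 with no block, and the fit was tested on simulated data. The number of arrays limits precision. The genes, lists and tests were chosen with earlier results of these data known. Named were the 10 genes, each called other BAF subunit and up to 4 not called, up to 3 called genes of each other chromatin list, and the 2 brightest markers of 5 cell type lists. The rule also covers the endothelial, interneuron and erythrocyte lists, which are given by counts, medians or sums, apart from Kdr, the brightest endothelial marker. Col3a1, Lum, Pdgfrb, Rgs5 and Abcc9 were named outside the rule, for being dim in positive cells. Same-numbered arrays are taken as pairs only in the block alternative and in the exchange within same-numbered arrays, not in the main fit. Their deviations from the group means correlated at 0.23, 0.13 and 0.37 (at most 0.06 otherwise). These correlations are not independent of each other, since each group mean is that of the same 3 arrays. The 15 alternatives changed the background, scaling, values, filter, probe choice, block or variance model, or left out 1 array.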

Additional observations from a re-analysis of the deposited data

How the results depend on the processing

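Of the 10 genes, Actl6a and Bcl7a kept direction and call under all 15 alternatives. With normexp background 0 of the 10 were called lower, since Dpf3 lost its call, and the ratio of Dpf3 to Phf10 turned to 0.142. With the replicate block, 2 of the 10 were higher and 1 lower, and 2018 and 1965 genes were called in all; exchange within same-numbered arrays gave the ratios of the 5 gene pairs exact p-values of 0.25 to 1; the block changed no call among the 10 and, beyond them, added Dpf2 to the named genes called. Higher genes numbered 1687, against 928 after the percentile over probes bright on all 6 arrays, 1119 in the authors' values and 895 with no filter on dim probes, and 761 to 1732 with 1 array left out (negative array 1: 761, negative array 3: 779, positive array 1: 1057). The ratio of Ss18l1 to Ss18 changed by -0.088 to 0.108 with 1 array left out, below 0 when negative array 2 or positive array 2 was dropped, and that of Dpf1 to Phf10 by -0.098 to 0.474. Dpf1 turned to 0.11 with median centring, and ranged from -0.216 to 0.018 with 1 array left out, above 0 when negative array 1 or positive array 3 was dropped. Bcl11b turned to 0.136 with median centring, and to 0.062 when a gene's probes were averaged, and ranged from -0.263 to 0.117 with 1 array left out, above 0 when negative array 1 or 2 or positive array 3 was dropped. The cause was not tested. The normexp run added its offset to all spots and also started from the median signals. The parts of these changes in the Dpf3 value cannot be told apart.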

Other observations

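Of 13 genes of the REST and CoREST repressor complexes, which silence neuronal genes outside neurons, 4 were higher and 2 lower in Tis21-GFP positive cells, with a median of 0.32, where 12.9% of all genes were called higher and 13.1% lower. Rest itself, the DNA-binding repressor, read 2.17, 2.47 and 2.37 in negative and 0.61, -0.07 and 0.19 in positive cells, a difference of -2.09 ± 0.19 (adjusted p = 0.00034). Rcor2, a CoREST scaffold, was higher by 1.83 and the histone demethylase gene Kdm1a by 0.94. The 3 were called under all 15 alternatives.

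Of 31 Polycomb genes measured, 9 were higher and 2 lower, with a median of 0.24. The background for this list and the Chd list was 12.9% called higher and 13.1% lower. Cbx2, a chromodomain reader, was higher by 1.20 (1.195) and Phc2 by 1.05 (1.045), whereas Phf19, an accessory subunit of the methyltransferase complex, was lower at -0.93. Among 8 Chd remodellers, Chd4 was higher by 0.47 and Chd5, known from neurons, was lower at -1.01 (adjusted p = 0.0226). Chd4 did not pass under 9 alternatives and Chd5 under 4. The call for Chd4 was lost without any 1 of negative arrays 1 to 3 or positive arrays 2 and 3, and that for Chd5 without negative array 1, negative array 3 or positive array 2.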
